A study of Mus musculus with 8 samples.

Results

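The proteins that hold and release P-TEFb, the kinase that frees paused RNA polymerase II (PolII), were followed at the mRNA level through 6 genes: Hexim1, Larp7 and Mepce of the 7SK small nuclear ribonucleoprotein (snRNP), and Cdk9, Ccnt1 and Ccnt2 of P-TEFb itself. The genes were taken by name and not by a rule on their values, though with earlier results of these data known. They are 6 of the 21915 Ensembl genes in the mRNA count table. All 6 passed the filter on low counts and were among the 14142 genes tested. The table covers poly(A)+ RNA of Hepa 1-6, a mouse hepatoma line, in 2 control and 2 Kap1 knockdown (KD) samples, all collected 5 days after transduction. Kap1 KD cells had received a lentiviral pLKO vector that encodes an shRNA to Kap1. Control cells carried the empty pLKO vector according to the methods, whereas the labels speak of a control shRNA. Both groups were selected with puromycin. The comparison asks how a lowered level of KAP1, a transcriptional co-regulator that has been placed together with 7SK snRNP at PolII promoters, was accompanied by changes in the mRNA of this machinery. The small RNA libraries of the same study hold tRNA and snoRNA sequences and were not used here.

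P-TEFb consists of the kinase CDK9 and a cyclin T, either T1 or T2. It phosphorylates the pausing factors NELF and DSIF and the C-terminal domain of PolII, which lets paused polymerase proceed into the gene. Part of the cellular P-TEFb is kept inactive on 7SK RNA, a short RNA polymerase III transcript that is capped by MEPCE and protected at its 3′ end by LARP7, while HEXIM1 binds both the RNA and the kinase and blocks the kinase.

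The libraries held from 41566888 to 53605115 counts. Trim28, the gene of KAP1, had 456 and 575 CPM (read counts scaled to library size, after TMM normalization) in control cells against 106 and 78.9 in Kap1 KD cells. The knockdown thus left part of the transcript in place. The fitted change was -2.48 on the log2 scale (standard error 0.25), with an adjusted p of 0.9999 by the quasi-likelihood test of edgeR, whereas DESeq2 called the gene lower. Of the hepatocyte markers, Alb (albumin) and Afp (alpha-fetoprotein) were abundant, whereas Apoa1 had at most 21 counts in any library and Ttr and Serpina1a at most 11. The summed level of the 7 hepatocyte markers was 2420 and 2020 CPM in control cells against 1680 and 1050 in Kap1 KD cells. All 5 that could be tested had a negative log2 fold change, beside a median of -0.02 over all tested genes. For 4 of the 5 both Kap1 KD samples lay below both controls, as for 10.6% of all tested genes, whereas for Hnf4a the groups overlapped. Summed leukocyte markers ranged from 3.31 to 7.59 CPM, fibroblast markers from 1.13 to 1.83 and endothelial markers from 0.144 to 0.282. Ptprc had at most 8 counts in any library, whereas Cd68, the other leukocyte marker, had 136 to 347. Pecam1 had at most 13 counts and Cdh5 at most 2. The part of these differences in the results below was not tested.

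No gene of the 6 passed the test between control and Kap1 KD cells in the fit without a term for the replicate number. The estimates ranged from 9.71% above the control level for Larp7 to -9.79% for Hexim1, except for Ccnt2, at -28.5% with a wide error. Log2 fold changes ran from -0.48 for Ccnt2 to 0.13 for Larp7 and Mepce, with a median of 0.03 beside a median of -0.02 over all tested genes. edgeR's quasi-likelihood test called 0 of the 6 genes higher and 0 lower at a 1.5-fold change and an adjusted p under 0.05, where the background was 0% of all tested genes in either direction. Since this test called no gene at all, Trim28 included, the count of 0 does not set the 6 genes apart. None of the 6 had an unadjusted p under 0.05, which 1.31% of all tested genes had. With DESeq2 the count was also 0 of the 6, beside 187 genes in all. DESeq2 called 2 genes higher and 1 lower, none of them among the 6. Each of the 6 genes had an adjusted p of 0.9999 (edgeR, Benjamini-Hochberg over all tested genes). Nothing in the labels says whether the samples of a group came from separate cultures, so these p-values measure only the spread between these samples.

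**Figure D1:**
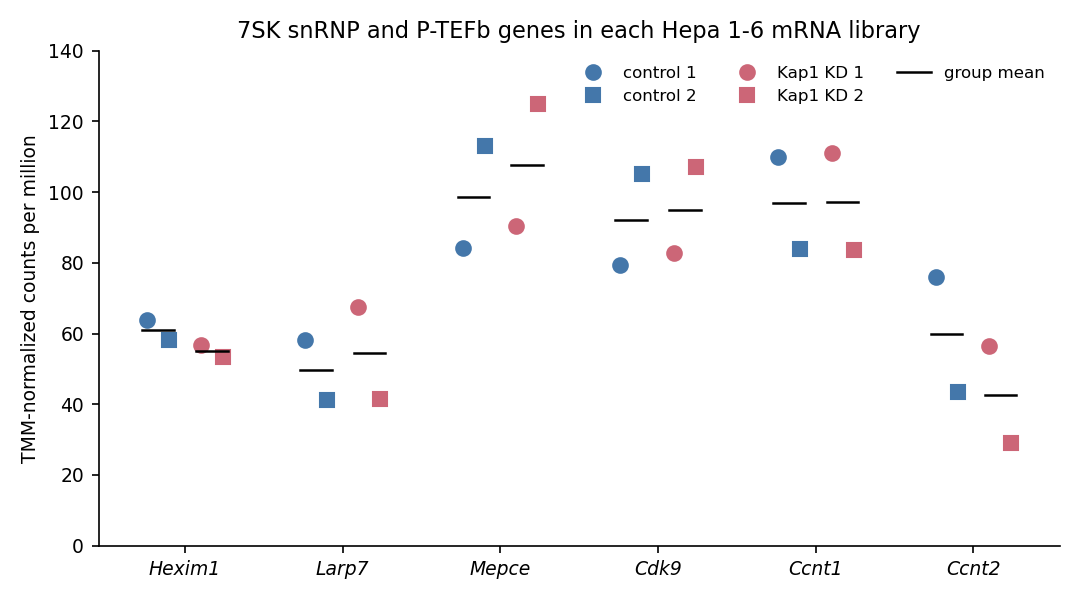
TMM-normalized CPM (vertical axis) of the 6 genes in each Hepa 1-6 mRNA library, with control samples in blue, Kap1 KD samples in red, circles for replicate 1, squares for replicate 2 and a line at each group mean. Hexim1 is the gene whose Kap1 KD samples both lie below both control samples, and for Ccnt2 the samples run from 76.1 in control replicate 1 to 29.0 in Kap1 KD replicate 2.

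Hexim1 encodes the protein that inhibits CDK9 within the 7SK snRNP. It is annotated as a single exon of 3401 bp on the plus strand at chr11:102977639-102981039 of mm9 (ENSMUSG00000048878). It had 63.7 and 58.3 CPM in control cells against 56.8 and 53.3 in Kap1 KD cells. Neither Kap1 KD sample reached the lower of the controls, though the gap between the nearest samples was small. A separation of this kind was found for 10.6% of all tested genes, and Hexim1 was the 1 gene of the 6 that showed it. The reverse separation, with both Kap1 KD samples above both controls, was seen in 0 of the 6 genes and in 9.69% of all tested genes. The means were 61.0 ± 3.82 (SD, n = 2) and 55.1 ± 2.47 (SD, n = 2). Its fitted log2 fold change was -0.15 (standard error 0.18), with a 95% interval from -0.62 to 0.32, which includes no change.

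Larp7 encodes the La-related protein that holds the 3′ end of 7SK RNA. It lies on the minus strand at chr3:127239872-127256266 (ENSMUSG00000027968) in 13 exons, and the microRNA genes Mir302a to Mir302d and Mir367 sit on the opposite strand within its bounds but share 0 bases with its exons. Larp7 had 58.2 and 41.1 CPM in control cells against 67.5 and 41.5 in Kap1 KD cells. Replicate 1 was the higher sample in each group, and the groups overlapped. Its estimated log2 fold change was 0.13 (standard error 0.33), with a 95% interval from -0.72 to 0.99. Its sign rested on single libraries, since it was -0.07 without control replicate 2 and -0.26 without Kap1 KD replicate 1.

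Mepce encodes the enzyme that methylates the 5′ cap of 7SK RNA. Its 3 exon blocks lie on the minus strand at chr5:138223134-138227943 (ENSMUSG00000029726). Mepce had 84.1 and 113 CPM in control cells against 90.4 and 125 in Kap1 KD cells. Here replicate 2 was the higher sample in each group, opposite to Larp7, and the groups again overlapped. On the log2 scale the fold change was 0.13 (standard error 0.26), with a 95% interval from -0.55 to 0.81. It became -0.07 without control replicate 1 and -0.11 without Kap1 KD replicate 2.

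The RNA on which these proteins assemble is not polyadenylated as a rule and is counted here only as it passed through poly(A) selection. The count table holds 49 loci that the annotation names as 7SK, all with at least 1 count, and a read that matches several near-identical copies was reported at 1 of them. Over these loci the libraries held 133 and 95 counts in control cells against 103 and 2012 in Kap1 KD cells, so the high value was that of Kap1 KD replicate 2 alone. In that library 3 loci took 95.6% of the 7SK counts. The same loci held 27.8% and 49.5% in control and 15.5% in Kap1 KD replicate 1. Loci are numbered by counts summed over all libraries, so Kap1 KD replicate 2 put these 3 first. Locus 4 had the most counts in control replicate 1 (31) and in Kap1 KD replicate 1 (33). Locus 1, at chr9:78023110-78023440 on the minus strand, had 24 and 20 counts in control against 8 and 1107 in Kap1 KD. Locus 2, at chr15:93064794-93065131 on the plus strand, had 6 and 13 counts in control against 7 and 443 in Kap1 KD. Locus 3, at chr2:6997140-6997460 on the minus strand, had 7 and 14 counts in control against 1 and 374 in Kap1 KD. Hexim1, Larp7 and Mepce did not share this pattern: in Kap1 KD replicate 2 their levels were 53.3, 41.5 and 125 CPM against 58.3, 41.1 and 113 in control replicate 2.

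The first 100 bases of these 3 loci, which form the 5′ hairpin region where HEXIM1 is known to bind at GAUC, are shown because they carry that motif and because they show how alike the copies are. They were read 5′ to 3′ on the strand of each locus from the mm9 genome, as DNA, with each GATC in capitals.
7SK locus 1: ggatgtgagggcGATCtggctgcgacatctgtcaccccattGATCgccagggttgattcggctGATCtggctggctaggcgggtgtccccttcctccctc
7SK locus 2: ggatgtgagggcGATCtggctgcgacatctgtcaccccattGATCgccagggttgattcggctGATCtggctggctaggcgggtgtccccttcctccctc
7SK locus 3: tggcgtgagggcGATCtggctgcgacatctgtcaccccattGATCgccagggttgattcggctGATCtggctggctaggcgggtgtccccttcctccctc

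Loci 1 and 2 were identical over this stretch, and locus 3 differed from them at 3 bases (97% identity). Each of the 3 held GATC 3 times. GATC reads the same on both strands. It occurred at least once in the first 100 bases of 32 of the 49 loci (65.3%) and 3 times in 6 of them (12.2%), with 1 locus shorter than 100 bases.

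Cdk9 encodes the catalytic subunit of P-TEFb. It lies on the minus strand at chr2:32561304-32568596 (ENSMUSG00000009555), and 2 annotated microRNA genes on the same strand share 73 and 82 of its exonic bases. Cdk9 had 79.5 and 105 CPM in control cells against 82.8 and 107 in Kap1 KD cells. The replicates of each number lay close together across the groups and the groups overlapped. Its log2 fold change came to 0.04 (standard error 0.24), with a 95% interval from -0.58 to 0.67, and it was -0.01 when libraries were scaled by total counts alone. It was -0.14 without control replicate 1 and -0.14 without Kap1 KD replicate 2.

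Ccnt1 encodes cyclin T1, the cyclin partner through which P-TEFb is best known. It lies on the minus strand at chr15:98369120-98401354 (ENSMUSG00000011960). Ccnt1 had 110 and 83.9 CPM in control cells against 111 and 83.6 in Kap1 KD cells, so each replicate number had nearly the same level in both groups. The estimated log2 fold change was 0.01 (standard error 0.24), with a 95% interval from -0.63 to 0.65, and its sign turned with the scaling (-0.03 with total counts alone) and with single libraries (-0.15 without control replicate 2, -0.21 without Kap1 KD replicate 1). Of its exonic bases, 695 (7.59%) are shared with 9330020H09Rik on the opposite strand. Whether the counting used strand is not given in the sources used here, so reads from that stretch may belong to either gene.

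Ccnt2 encodes cyclin T2, the alternative cyclin of P-TEFb, and was the gene of the 6 with the largest estimated change. It lies on the plus strand at chr1:129670741-129704638 (ENSMUSG00000026349). Ccnt2 had 4238 and 2154 counts (76.1 and 43.4 CPM) in control cells against 2406 and 1357 counts (56.5 and 29.0 CPM) in Kap1 KD cells. Within each replicate number the Kap1 KD sample was the lower, but control replicate 2 lay below Kap1 KD replicate 1, so the groups overlapped. The means were 59.8 ± 23.1 (SD, n = 2) and 42.7 ± 19.4 (SD, n = 2). edgeR's fit gave a log2 fold change of -0.48 (standard error 0.44, unadjusted p = 0.324), with a 95% interval from -1.63 to 0.66, that is from 0.323 to 1.58 of the control level. The size of this change exceeded that of 89.4% of all tested genes. It was -0.02 without control replicate 1, -0.07 without Kap1 KD replicate 2, -0.81 without control replicate 2 and -1.04 without Kap1 KD replicate 1. In bulk libraries such as these, fewer cells that express a gene and less RNA per cell cannot be told apart.

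When the samples were set side by side by replicate number, the log2 changes of CPM plus 0.1 were -0.43 for Ccnt2 in replicate 1 and -0.58 in replicate 2. Changes at least as low as -0.43 in both were found for 3.44% of all tested genes, a limit set by the value of Ccnt2 itself. Hexim1 had -0.17 and -0.13. These were the 2 of the 6 genes that were lower at both numbers, as 38.1% of all tested genes were. Mepce (0.10 and 0.15), Larp7 (0.21 and 0.01) and Cdk9 (0.06 and 0.03) were higher at both, as were 32.8% of all tested genes. With total-count scaling the change at replicate 2 was -0.06 for Larp7 and -0.04 for Cdk9, so of these 3 genes Mepce alone was higher at both numbers under either scaling. Ccnt1 had 0.02 and 0.00. Apart from Ccnt2, then, the values stayed within 0.21 of no change.

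**Figure D2:**
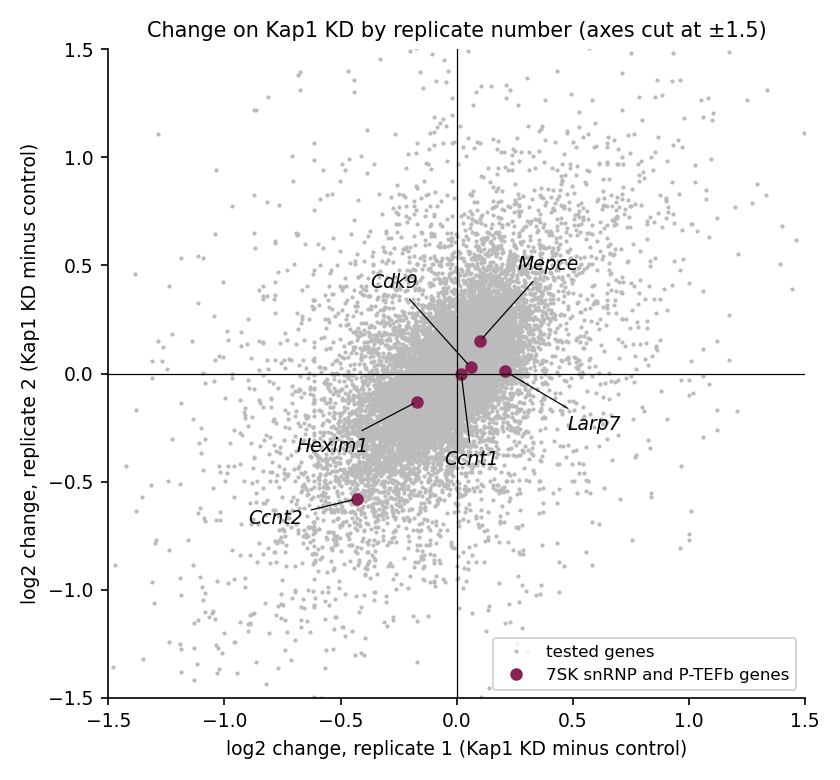
Log2 change from control to Kap1 KD in replicate 1 (horizontal axis) and in replicate 2 (vertical axis), computed on CPM plus 0.1, with each tested gene as a grey point and the 6 genes in purple; the axes end at 1.5. Ccnt2 lies at -0.43 and -0.58 and Hexim1 at -0.17 and -0.13, while the other 4 lie near the centre of the cloud.

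Levels of the 6 genes were compared with each other per exonic kilobase. In control cells Mepce stood highest at 29.9 ± 6.14 CPM per exonic kilobase (SD, n = 2). Larp7 followed at 26.4 ± 6.43, Cdk9 at 20.0 ± 3.83, Hexim1 at 17.9 ± 1.12, Ccnt1 at 10.6 ± 2 and Ccnt2 at 4.84 ± 1.87 (SD, n = 2 each). The order was the same in Kap1 KD cells, where Mepce had 32.7 ± 7.41, Larp7 29.0 ± 9.78, Cdk9 20.6 ± 3.70, Hexim1 16.2 ± 0.727, Ccnt1 10.6 ± 2.14 and Ccnt2 3.46 ± 1.57 (SD, n = 2 each). Over the 4 libraries the neighbours from Mepce down to Hexim1 had overlapping ranges. Hexim1, from 15.7 to 18.7, stood clear of Ccnt1, from 9.13 to 12.2, and Ccnt1 stood clear of Ccnt2, from 2.35 to 6.16. With the length of the longest annotated transcript in place of all exons the control order was unchanged, and Ccnt2 was then at 7.82, since its exons sum to 12345 bp and its longest transcript to 7640 bp.

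Ratios within a library do not depend on how libraries are scaled, and 4 were computed on counts per exonic kilobase. The ratio of Ccnt2 to Ccnt1 was 0.514 and 0.384 in control cells against 0.377 and 0.257 in Kap1 KD cells. Both Kap1 KD samples lay below both controls, the nearest ones by a narrow margin. On the log2 scale the difference was -0.51, with an exact two-sided permutation p of 0.333, the smallest that 2 against 2 samples allow, and 1 after adjustment over the 4 ratios. Without 1 library at a time it ran from -0.79 (without Kap1 KD replicate 1) to -0.24 (without Kap1 KD replicate 2).

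The ratio of Cdk9 to the sum of both cyclins T was 0.950 and 1.79 in control against 1.07 and 2.02 in Kap1 KD samples. It differed by 0.18 on the log2 scale (exact permutation p = 0.667), and by 0.18 at each replicate number, against SDs of 0.65 and 0.64 within the groups. Hexim1 to the sum of both cyclins T was 1.03 and 1.35 in control against 0.999 and 1.37 in Kap1 KD samples, a log2 difference of -0.02 (exact permutation p = 1). Larp7 to Mepce was 1.21 and 0.639 in control against 1.31 and 0.582 in Kap1 KD samples, a log2 difference of -0.01 (exact permutation p = 1). For these 3 ratios the replicates of a group lay further apart than the group means, and the sign of the log2 difference turned when 1 library was left out. It then ran from -0.28 to 0.63 for Cdk9 to both cyclins T, from -0.24 to 0.21 for Hexim1 to both cyclins T and from -0.60 to 0.57 for Larp7 to Mepce. Their adjusted p was 1.

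**Figure D3:**
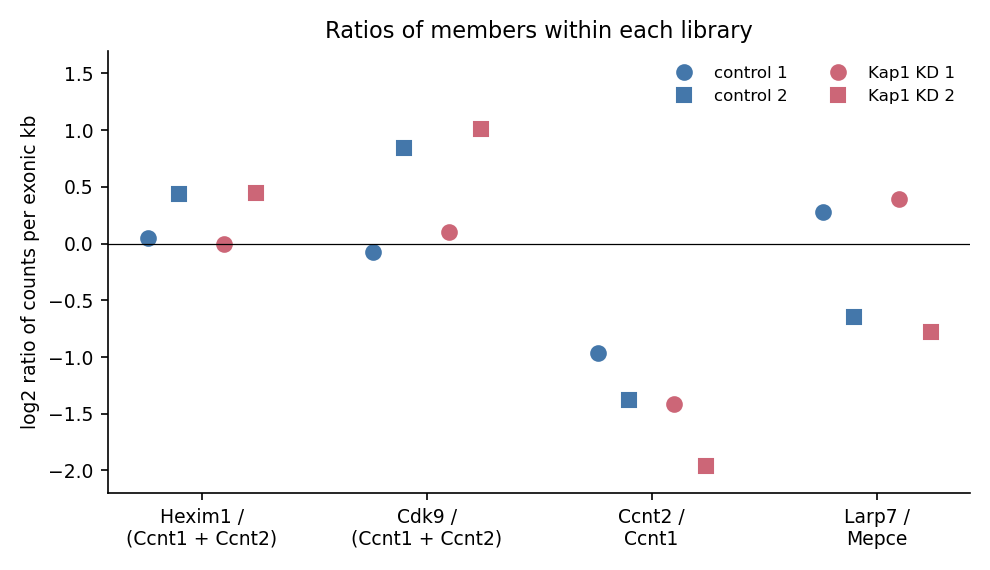
Log2 ratio of counts per exonic kilobase between members within each library (vertical axis), with control samples in blue, Kap1 KD samples in red, circles for replicate 1 and squares for replicate 2. For Ccnt2 to Ccnt1 the Kap1 KD samples, at -1.41 and -1.96, lie below the controls, at -0.96 and -1.38; for the other 3 ratios the groups overlap.

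For 5 of the 6 genes the replicates of a group differed by more than the groups did. In each of the 6 replicate 2 deviated from replicate 1 in the same direction in control and in Kap1 KD cells, as did 12189 of the 14142 tested genes. For Ccnt2 the gap on the log2 scale was -0.81 among control and -0.96 among Kap1 KD samples. For Larp7 it was -0.50 and -0.70, and for Ccnt1 -0.39 and -0.41. Mepce, at 0.42 and 0.47, and Cdk9, at 0.39 and 0.37, deviated the other way. Hexim1 had the smallest gap, -0.13 and -0.09, and was the 1 gene whose mean gap did not exceed its difference between groups. Over all tested genes the gap exceeded that difference for 10609. The median size of the gap was 0.42 over the 6 genes and 0.36 over all tested genes.

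The direction of this gap went with base composition, a relation looked at after the values were seen. GC content of the longest transcript was 43.0% for Ccnt2, 44.8% for Ccnt1, 47.5% for Larp7, 48.9% for Hexim1, 55.7% for Cdk9 and 59.7% for Mepce, beside a median of 50.3% over the 12417 genes with a value. The 4 genes below that median were lower in replicate 2 and the 2 genes above it were higher. Across these genes, which share the same 4 libraries and are not independent, Spearman's rho was 0.68 between GC content and the gap and 0.35 between GC content and the log2 fold change of Kap1 KD against control. The median log2 fold change was -0.14 for genes under 45% GC, as Ccnt2 and Ccnt1 are, and 0.09 for genes over 55% GC, as Cdk9 and Mepce are. With each library corrected for GC content, the log2 fold change of Ccnt2 was -0.37 (standard error 0.19), that of Mepce 0.03 (standard error 0.10) and that of Ccnt1 0.10 (standard error 0.09). For Hexim1 it was -0.12 (standard error 0.11), for Larp7 0.18 (standard error 0.22) and for Cdk9 -0.01 (standard error 0.10). A correction made on each library acts on a GC trend between the groups as well as on that between replicates.

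**Figure D4:**
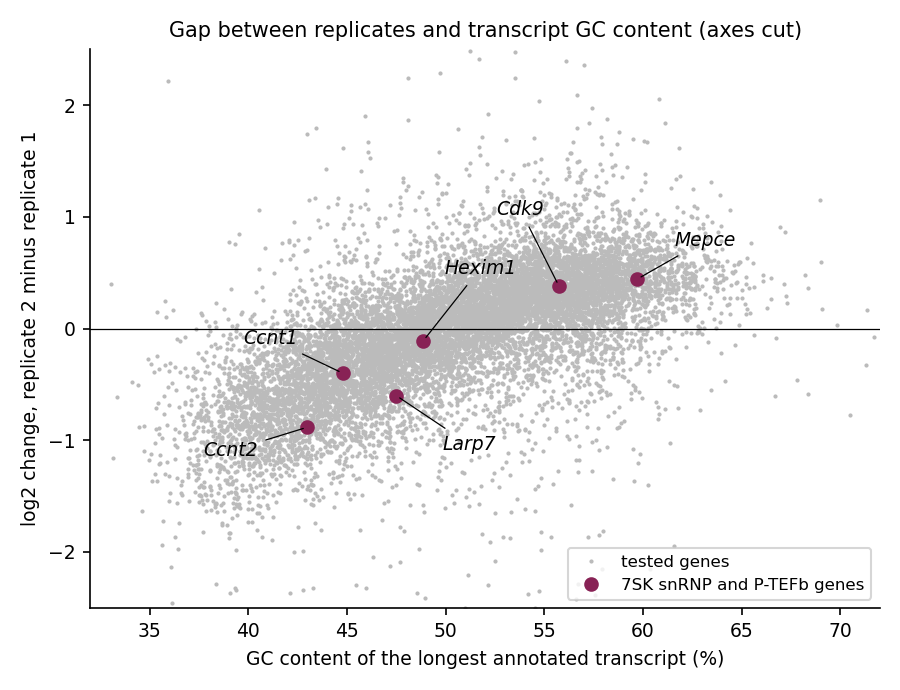
Log2 difference between replicate 2 and replicate 1, averaged over the groups (vertical axis), against the GC content of the longest annotated transcript in percent (horizontal axis). Grey points are the 12417 tested genes with a GC value, and the 6 genes are in purple. The axes leave out the most extreme genes. Ccnt2, at 43.0% GC and -0.88, and Mepce, at 59.7% GC and 0.44, lie at opposite ends of the 6.

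The wider machinery was described through 26 further genes in 4 roles, of which 25 could be tested. Ell3 could not, with 2 and 6 counts in control against 0 and 1 in Kap1 KD samples. edgeR's quasi-likelihood test called 0 of the 25 higher and 0 lower (background 0% in either direction), and 0 had an unadjusted p under 0.05 with edgeR or with DESeq2. As edgeR called no tested gene at all, its count of 0 does not set the 25 apart. Their median log2 fold change was -0.05 and the range was -0.61 to 0.33. Both Kap1 KD samples lay above both controls for 2 of them, against 9.69% of all tested genes, and below both for 3, against 10.6%.

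Among the 6 genes of other 7SK-binding proteins the median log2 fold change was -0.13. Hexim2, a close relative of Hexim1 that can also inhibit P-TEFb, had -0.01 (standard error 0.29) at a level of 4.51 to 6.11 CPM, and Hnrnpa1, an RNA-binding protein that holds the released 7SK RNA, had -0.02 (standard error 0.23). The lowest values were those of Srsf2, a splicing factor, at -0.48 (standard error 0.76), and Hnrnpr at -0.18 (standard error 0.28). Srsf2 had 15.5 and 4.80 CPM in control against 10.9 and 3.70 in Kap1 KD samples, so its replicates lay further apart than its groups.

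Among the 5 genes that recruit or release P-TEFb the median was 0.14, and their values ran from 0.07 to 0.23. Ppp1ca, a catalytic subunit of protein phosphatase 1, had 0.23 (standard error 0.32), and Jmjd6, a protein that takes part in the release of paused PolII, had 0.19 (standard error 0.18). The lowest values were those of Ppm1a, a phosphatase, at 0.07 (standard error 0.17), and Ddx21, an RNA helicase that can free P-TEFb from 7SK RNA, at 0.12 (standard error 0.17). Ddx21 had 460 and 415 CPM in control against 506 and 447 in Kap1 KD samples, so the groups overlapped. The 95% intervals of all 5 include no change.

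The super elongation complex, in which active P-TEFb works with ELL and AFF proteins, had a median of -0.15 over 8 tested genes. Ell was highest at 0.33 (standard error 0.24), with 31.5 and 37.1 CPM in control against 36.6 and 49.5 in Kap1 KD samples. Mllt1 had 0.26 (standard error 0.38). Ell2, a relative of Ell, had -0.37 (standard error 0.21), with 20.3 and 18.1 CPM in control against 15.9 and 13.8 in Kap1 KD samples, which did not overlap. Eaf2 had -0.61 (standard error 0.57) from 34 and 14 counts in control against 15 and 11 in Kap1 KD samples.

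The other kinases of the PolII tail and their partners had a median of -0.06 over 6 genes. Ccnk, the cyclin of CDK12 and CDK13, had 0.25 (standard error 0.19), with 34 and 32.7 CPM in control against 37.5 and 41.9 in Kap1 KD samples, which did not overlap. Cdk12 had -0.03 (standard error 0.19). Cdk7 and Ccnh, kinase and cyclin of the general factor TFIIH, had -0.12 each (standard errors 0.26 and 0.34).

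**Figure D5:**
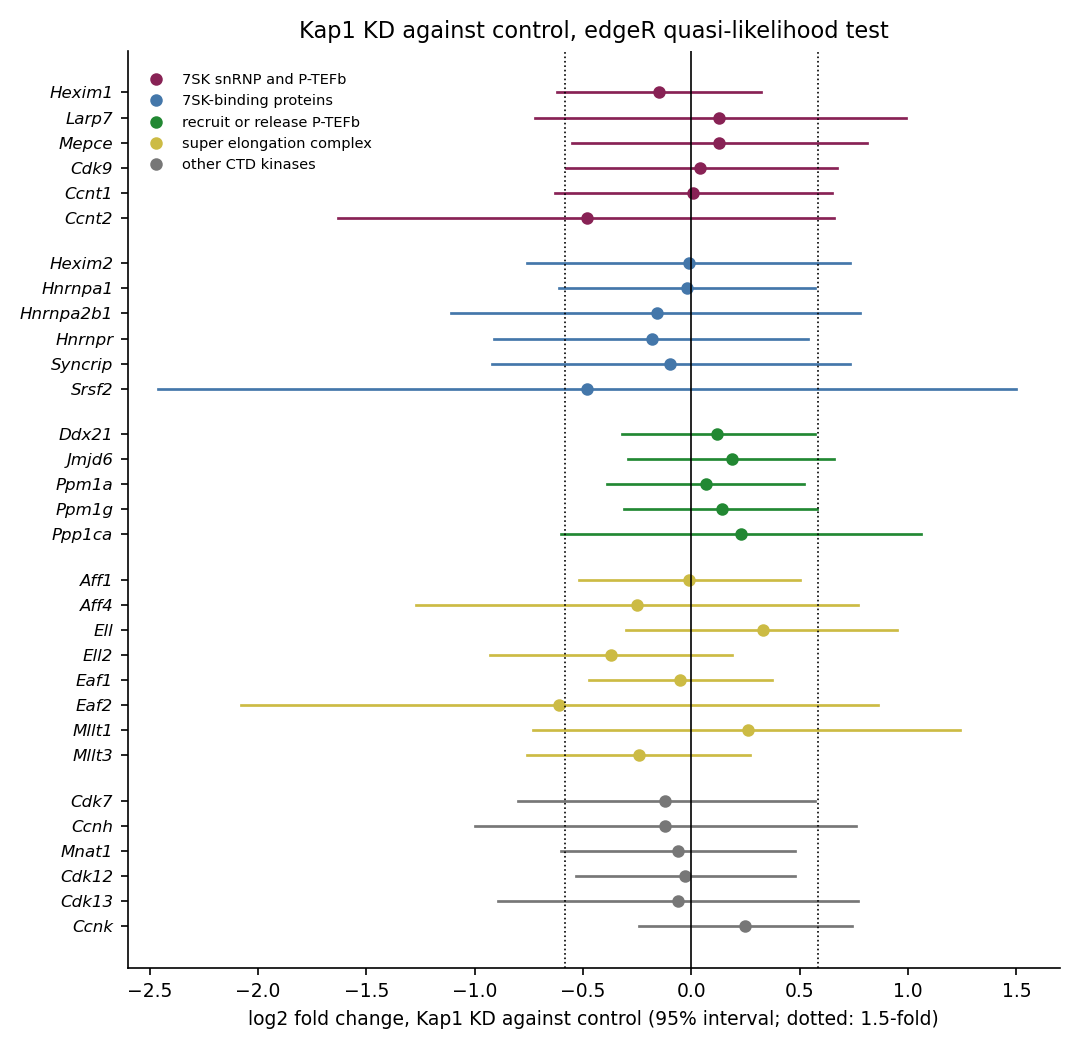
Log2 fold change of Kap1 KD against control (horizontal axis) for the 6 genes and the 25 other tested genes of the pathway, coloured by role, with bars for the 95% interval and dotted lines at a 1.5-fold change. Every bar crosses 0, and Ccnt2, at -0.48, and Srsf2, at -0.48, have wider bars than most.

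The gene nearest to each of the 6 in its profile was sought among 9961 genes with a mean of at least 5 CPM, by the root mean square difference of centred log2 levels over the 4 samples. It was Hirip3 for Hexim1 (0.0101), Bbs7 for Larp7 (0.0172), Fen1 for Mepce (0.00346), Tmem164 for Cdk9 (0.00789), Hnrnpd for Ccnt1 (0.00592) and Arhgap18 for Ccnt2 (0.0126). With 4 samples such likeness is a description. Arhgap18 had centred log2 levels of 0.64 and -0.16 in control against 0.24 and -0.72 in Kap1 KD samples, beside 0.66, -0.15, 0.23 and -0.73 for Ccnt2.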

How the data were processed

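The mRNA-seq values are whole-number counts for each Ensembl gene, deposited by the authors without normalization. Their methods and the submitters' processing notes name TopHat2 2.0.11 on mm9, set to report 1 alignment per read, and HTSeq 0.6.1; whether HTSeq used strand is not given in the sources used here. The authors compared the samples with DESeq2 at 1.5-fold and an adjusted p under 0.05, as here. They reported more genes in each direction than edgeR or DESeq2 called here without a term for the replicate number. With such a term DESeq2 called fewer than they reported in each direction, and edgeR called more. All columns of the table were mapped to samples; 1 sample of each group is labelled 2 and the other was taken as replicate 1.

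Symbols and coordinates came from the GENCODE annotation of mm9 (21806 of 21915 identifiers matched). Counts were tested with edgeR 4.0.16 in R 4.3.3 (filterByExpr, TMM, quasi-likelihood F test, no covariate) over 14142 genes; genes were called at 1.5-fold and an adjusted p (Benjamini-Hochberg) under 0.05. Each standard error was obtained as the fitted change over the square root of F, and 95% intervals used 4.78 degrees of freedom. CPM are TMM-normalized. DESeq2 1.42.0 was the alternative test. Scripts were tested on simulated data. Genes named are Trim28, the 6 genes, and for each role of the pathway the 2 highest and 2 lowest changes, plus the nearest profile; 1 gene of the pathway lists is not reported here. The genes and lists were chosen with earlier results of these data known. The alternatives varied the test, scaling, filter, block, pseudocount, threshold, gene length and samples; a correction of each library by a lowess curve on GC content (known for 87.8% of tested genes) and DESeq2 with a block were added after seeing the data. Total depth was 41566888 to 53605115 counts a library, and each of the 6 genes had at least 1357 counts in every library.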

Additional observations from a re-analysis of the deposited data

How the results depend on the processing

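The comparison rests on 2 samples a group, and the 95% interval of each of the 6 genes includes a 1.5-fold change in at least 1 direction. The fitted log2 fold changes of Hexim1, Larp7, Mepce and Ccnt2 kept their sign under DESeq2, both other scalings and no filter. The log2 fold change of Cdk9 was -0.01 with total counts, and -0.01 with GC correction, added after seeing the data, without or with the replicate block; Ccnt1 was -0.03 with total counts, which moved the median of all genes by -0.046. Leaving out 1 library at a time gave log2 fold changes of -0.19 to -0.08 for Hexim1, -0.26 to 0.45 for Larp7 (also -0.07), -0.11 to 0.38 for Mepce (also -0.07), -0.14 to 0.27 for Cdk9, -0.21 to 0.22 for Ccnt1 (also -0.15) and -1.04 to -0.02 for Ccnt2; the cause was not tested. It gave 2 to 45 genes called higher and 1 to 20 lower, where DESeq2 called 2 higher and 1 lower.

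The labels do not say that a replicate number marks a shared culture or day, so the samples share a number only. Same-numbered samples deviated together (correlation 0.81 across genes). With the replicate number as a block, 292 genes were called higher and 339 lower, 221 and 283 with GC correction as well, and 107 and 125 with DESeq2 and the block. The log2 fold change of Ccnt2 was then -0.50 (adjusted p = 6.22e-09 with edgeR, below the 1.5-fold threshold), -0.37 with GC correction (8.68e-07) and -0.49 with DESeq2 (adjusted p = 0.000216). That of Larp7 with GC correction and the block was 0.18 (adjusted p = 0.0375), against 0.311 with the block alone. The edgeR block fit without GC correction took its measure of spread from all genes together, so its p-values do not measure a gene's own spread. Whether the block fit with GC correction did the same was not recorded. Its standard errors were 0.06 or 0.07 for each of the 6 genes, beside 0.08 for each without GC correction. Its p-values therefore cannot be taken to measure a gene's own spread either. At 1.5-fold the block called none of the 6, and none of the 25 other pathway genes was called in any setting. At an adjusted p under 0.05 alone, the block fit of edgeR passed Ccnt2 of the 6 as lower, and 5 of the 25 as higher and 5 as lower. Of all 14142 tested genes it passed 1426 as higher and 1626 as lower. Whether the pathway genes differ from that background was not tested. Those of the 25 with the lowest adjusted p in this fit were Ell (0.32, adjusted p = 0.000411), Ppp1ca (0.23, 0.000865) and Ell2 (-0.37, 0.00167).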
